A study of Sus scrofa with 16 samples.

Results

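The mitochondrial chaperones, proteases and deacetylase described here were found in the files by their pig symbols. The symbols are HSPD1, HSPE1, HSPA9, DNAJA3, GRPEL1, TRAP1, LONP1, CLPP and SIRT3. A gene ID was paired with 8 of the 9 symbols, out of 25880 gene IDs in each library, of which 14857 had a symbol. GRPEL1, the nucleotide exchange factor of mitochondrial Hsp70, had no ID paired with its symbol and was not analysed here. One library of mRNA 3′ ends was sequenced from the liver of each of 16 fattening pigs. All pigs descended from Polish Landrace x Polish Large White sows and Duroc x Pietrain boars, were penned one by one on straw, and were fed from about 60 to 118 kg of body weight; their age is not given in the sources used here. The feeds were alike in energy and protein and differed in the fat, which was rapeseed oil in group R (5 pigs, 3 gilts and 2 barrows), beef tallow in group B (5 pigs, 2 gilts and 3 barrows) and coconut oil in group C (6 pigs, 3 gilts and 3 barrows). No group without added fat was analysed, so each comparison is between 2 fats.

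Most mitochondrial proteins are made in the cytosol and enter the organelle unfolded, so the matrix holds its own folding and quality control machinery. HSPA9 pulls in and folds incoming chains with its helpers DNAJA3 and GRPEL1, and HSPD1 and HSPE1 form the barrel and lid of the chaperonin that folds them further. TRAP1 is the mitochondrial Hsp90, LONP1 and CLPP degrade damaged or unassembled matrix proteins, and SIRT3 removes acetyl groups from matrix enzymes. Chaperones and proteases of this set are known targets of the mitochondrial unfolded protein response, the counterpart of the stress responses of the cytosol and the endoplasmic reticulum (ER).

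The reads on genes summed to 801172 to 1425550 per library on rapeseed oil, 879114 to 1490944 on beef tallow and 705669 to 1767671 on coconut oil (median over all libraries 1018321.5). No 2 of the 120 pairs of libraries were identical. The first principal component of the log2 levels, 19.3% of the variance, set the pig beef tallow 3 apart at 63.3 while the other pigs lay between -20.3 and 18.8. Several of the results that this pig moves are therefore given with and without it. Of the 10 hepatocyte markers, all had an ID and together they made up 77991 to 213880 normalized counts (CPM) per pig, although SERPINA1, a defining hepatocyte gene, had a median of 0 reads.

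Levels are in CPM, that is read counts scaled to 1 common library size with edgeR's TMM factors. Because reads came from transcript ends, CPM was not divided by gene length. HSPD1 had the highest mean over all 16 pigs, 594 CPM, followed by HSPA9 with 373, HSPE1 with 315, LONP1 with 56.1, DNAJA3 with 38.0, SIRT3 with 32.5, TRAP1 with 27.1 and CLPP with 14.95 CPM. The steps from HSPD1 to HSPA9 and from HSPE1 to LONP1 were present in 16 of 16 pigs. LONP1 was above DNAJA3 in 14 pigs and TRAP1 above CLPP in 15. HSPA9 exceeded HSPE1 in 10 pigs, DNAJA3 exceeded SIRT3 in 10 and SIRT3 exceeded TRAP1 in 11, so the order of these neighbours varied between pigs. HSPD1, HSPA9 and HSPE1 thus stood far above the proteases and the deacetylase. In reads, HSPD1 had 374 to 1162 per pig, HSPE1 224 to 655 and HSPA9 240 to 686, while CLPP had 5 to 31, TRAP1 13 to 55, SIRT3 11 to 67, DNAJA3 28 to 68 and LONP1 34 to 113.

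**Figure D1:**
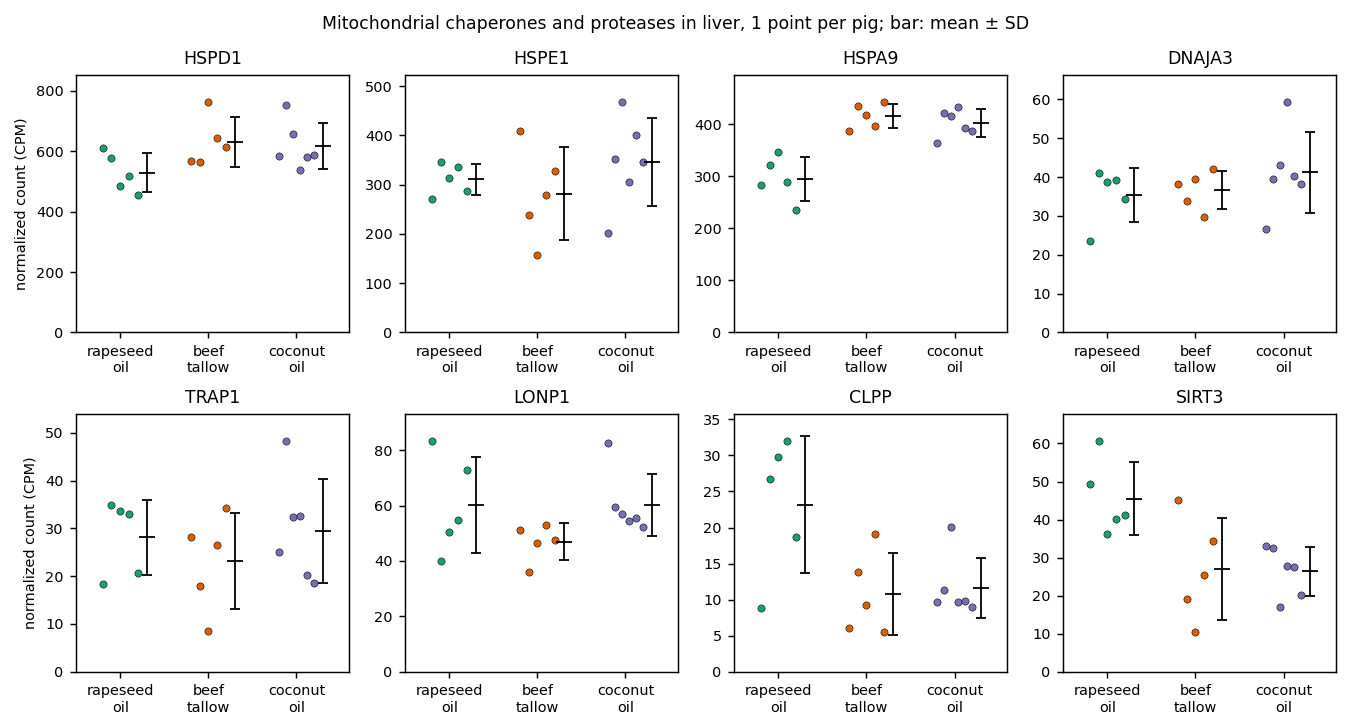
Normalized counts (CPM, linear axis from 0) of the 8 genes in each pig, grouped by diet, with the mean ± SD of 5, 5 and 6 pigs as a bar. For HSPA9 all rapeseed oil pigs sit at 236 to 346 CPM and all other pigs at 363 to 442 CPM, and for SIRT3 the rapeseed oil pigs (36.2 to 60.5 CPM) lie above every coconut oil pig (16.97 to 33.2 CPM).

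Diets were compared with edgeR's quasi-likelihood test, with Benjamini-Hochberg adjustment over all genes tested and a threshold of 0.05 (the edgeR adjusted p). A log2 fold change is positive where the first diet named is higher, and its standard error (SE) is given beside it. All 8 genes passed the filter on low counts in all 3 pairs of diets. None of the 8 genes passed the threshold in any pair of diets. In group B against R, 0 of 8 passed while 1.11% of all genes tested did, in group C against R 0 of 8 against 0.138%, and in group C against B 0 of 8 against 0.0587%. At an unadjusted p under 0.05 there were 3 of 8 in group B against R (HSPA9 higher, CLPP and SIRT3 lower), where 15% of all genes reached it, and the same 3 with the same signs in group C against R, where 13.0% did. Both comparisons share the rapeseed oil pigs. In group C against B no gene of the set reached an unadjusted p under 0.05, against 11.5% of all genes. DESeq2, the tool of the study, placed HSPA9 past its adjusted threshold in group B against R (1 of 8 genes) and HSPA9 and SIRT3 in group C against R (2 of the 6 genes to which it gave an adjusted p), and none of 3 in group C against B. It called 188 of all genes in group B against R, and its totals for each pair are given at the end. The share of all genes that DESeq2 called was not worked out, so its calls here have no such share beside them. The median log2 fold change of the 8 genes was -0.21 in group B against R, 0.10 in group C against R and 0.12 in group C against B, beside 0.01, -0.00 and -0.00 over all genes.

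The number of genes whose pigs did not overlap between 2 diets was 1 of 8 in group B against R (HSPA9), where 4.57% of all genes did not overlap. It was 2 of 8 in group C against R (HSPA9 and SIRT3), against 1.46% of all genes, and 0 of 8 in group C against B, against 1.45%. In these bulk livers, fewer cells of a type and less RNA per cell cannot be told apart.

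**Figure D2:**
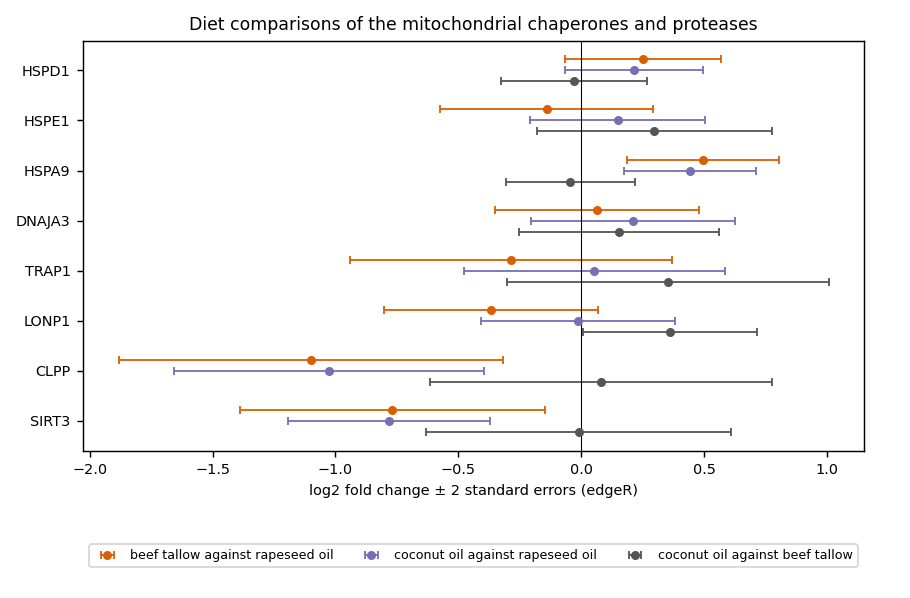
Log2 fold change of the 8 genes in each pair of diets (points) with ± 2 SE from the edgeR fit (bars), with 0 as no difference. The bars of HSPA9 (above 0), CLPP and SIRT3 (both below 0) leave out 0 in both comparisons with rapeseed oil, and none of these 3 does in coconut oil against beef tallow. There only the bar of LONP1 leaves out 0 (0.008 to 0.71), at an unadjusted edgeR p of 0.0570.

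The chaperonin pair is encoded side by side on chromosome 15 in RefSeq's annotation of Sscrofa11.1, with HSPD1 (ENSSSCG00000016077) at chr15:101360355-101373498 and HSPE1 (ENSSSCG00000016078) at chr15:101374019-101376146, 520 bases apart. In human and rodents the pair shares a promoter that acts in both directions. HSPD1, the barrel, had 611, 579, 483, 518 and 454 CPM in the rapeseed oil pigs and 567, 563, 763, 645 and 615 CPM in the beef tallow pigs, while the coconut oil pigs ran from 537 over a median of 586 to 753 CPM. The 3 lowest values were rapeseed oil pigs and the highest was beef tallow 3, but the diets overlapped. The means ± SD were 529 ± 65.2, 631 ± 81.4 and 617 ± 76.9 CPM in groups R, B and C (n = 5, 5 and 6). The log2 fold change of HSPD1 was 0.25 (SE 0.16, edgeR adjusted p = 0.476) in group B against R and 0.22 (SE 0.14, adjusted p = 0.551) in group C against R. Without beef tallow 3 the first of these was 0.17 (edgeR adjusted p = 0.574).

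HSPE1, the lid, had 270, 347, 314, 335 and 287 CPM in the rapeseed oil pigs, 409, 238, 157, 278 and 327 CPM in the beef tallow pigs, and 202 to 467 CPM with a median of 349 in the coconut oil pigs. The beef tallow and coconut oil pigs spread on both sides of the narrow rapeseed oil range, and the lowest value was that of beef tallow 3. Means were 311 ± 32.04, 282 ± 94.6 and 346 ± 89.5 CPM, and the log2 fold change was -0.14 (SE 0.22, edgeR adjusted p = 0.814) in group B against R, 0.15 (SE 0.18, adjusted p = 0.792) in group C against R and 0.30 (SE 0.24, adjusted p = 0.654) in group C against B. Without beef tallow 3 the first of these was 0.01 (edgeR adjusted p = 0.978), on the other side of 0. The log2 ratio of HSPD1 to HSPE1 within a pig averaged 0.76 ± 0.23, 1.22 ± 0.67 and 0.87 ± 0.39 in groups R, B and C. Its highest value, 2.28, was that of beef tallow 3, and the difference of 0.46 between groups B and R was 0.19 without that pig. The ratio did not differ between diets beyond the spread between pigs (adjusted p = 0.272, 0.689 and 0.384 for B against R, C against R and C against B, two-sided exact permutation tests).

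HSPA9 (ENSSSCG00000014338, chr2:140515239-140532164), the mitochondrial Hsp70, was lower in every rapeseed oil pig than in any pig fed another fat. The rapeseed oil pigs had 282, 322, 346, 289 and 236 CPM and the beef tallow pigs 387, 435, 417, 397 and 442 CPM. The coconut oil pigs ran from 363 to 433 CPM with a median of 405 CPM. The highest rapeseed oil pig thus lay under the lowest coconut oil pig, and beef tallow and coconut oil pigs overlapped. Mean levels of groups R, B and C were 295 ± 41.99, 416 ± 23.6 and 403 ± 26.1 CPM. HSPA9 was thus 1.41 times as high in group B as in R (log2 fold change 0.49, SE 0.16, edgeR adjusted p = 0.135) and 1.36 times as high in group C as in R (log2 fold change 0.44, SE 0.14, adjusted p = 0.179). Neither passed the edgeR threshold, while the adjusted p of DESeq2 was 0.0276 and 0.0166. Leaving out 1 pig at a time kept the log2 fold change of HSPA9 between 0.42 and 0.56 in group B against R (edgeR adjusted p 0.102 to 0.273) and between 0.37 and 0.50 in group C against R (0.150 to 0.313). Group C against B gave -0.04 with a ± 2 SE interval from -0.31 to 0.22. LOC110259501 lies 6 bases from HSPA9 in the annotation, and its counts were not looked up.

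DNAJA3 (ENSSSCG00000022874, chr3:37883233-37919141), the J-domain partner that delivers clients to HSPA9, did not separate the diets. Its levels were 23.5, 41.04, 38.8, 39.1 and 34.4 CPM in the rapeseed oil pigs, 38.2, 34.0, 39.4, 29.7 and 42.03 CPM in the beef tallow pigs and 26.7 to 59.3 CPM (median 39.9) in the coconut oil pigs. The ranges of all 3 diets lay over each other. The log2 fold changes were 0.07 (SE 0.21), 0.21 (SE 0.21) and 0.15 (SE 0.20) for B against R, C against R and C against B, with edgeR adjusted p of 0.924, 0.736 and 0.806. The ± 2 SE interval of the first ran from -0.35 to 0.48.

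TRAP1 (ENSSSCG00000007952, chr3:38536710-38595273), the Hsp90 of the matrix, had 18.4, 34.9, 33.6, 33.0 and 20.7 CPM in the rapeseed oil pigs and 28.3, 18.04, 8.53, 26.6 and 34.3 CPM in the beef tallow pigs. The coconut oil pigs ran from 18.6 to 48.2 CPM with a median of 28.7 CPM. The diets overlapped throughout and beef tallow 3 again had the lowest value, from 13 reads. The log2 fold change was -0.29 (SE 0.33, edgeR adjusted p = 0.727) in group B against R, which was -0.05 without beef tallow 3, and 0.05 (SE 0.27, adjusted p = 0.957) in group C against R. The gene overlaps DNASE1 in the annotation, which had at most 5 reads in any pig. Whether the counting used strand is not given in the sources used here.

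Of the proteases, LONP1 (ENSSSCG00000027128, chr2:73266310-73286774), an ATP-dependent protease that also binds mitochondrial DNA, had 83.1, 40.0, 50.4, 54.6 and 72.8 CPM in the rapeseed oil pigs. The beef tallow pigs lay at 51.2, 36.1, 46.6, 53.1 and 47.6 CPM and the coconut oil pigs at 52.4 to 82.5 CPM with a median of 56.3 CPM. All but 1 of the coconut oil pigs were above every beef tallow pig, and the rapeseed oil pigs spanned both. Means were 60.2 ± 17.5, 46.9 ± 6.61 and 60.3 ± 11.2 CPM. The log2 fold change was -0.37 (SE 0.22, edgeR adjusted p = 0.440) in group B against R, -0.01 (SE 0.20, adjusted p = 0.983) in group C against R and 0.36 (SE 0.18, unadjusted p = 0.0570, adjusted p = 0.447) in group C against B. RPL36, 131 bases from LONP1 in the annotation, had no ID paired with its symbol.

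CLPP (ENSSSCG00000038079, chr2:72707363-72713481), the proteolytic core that works with the unfoldase CLPX, had 8.83, 26.7, 29.7, 31.9 and 18.7 CPM in the rapeseed oil pigs. It had 6.11, 13.8, 9.19, 19.1 and 5.53 CPM in the beef tallow pigs, and 9.01 to 20.1 CPM with a median of 9.74 CPM in the coconut oil pigs. Of the rapeseed oil pigs 3 lay above every other pig, while rapeseed oil 1 lay among the lowest, so the groups overlapped. Means were 23.2 ± 9.46 CPM on rapeseed oil, 10.7 ± 5.71 on beef tallow and 11.6 ± 4.21 on coconut oil, and they rest on 5 to 31 reads per pig. The log2 fold change was -1.10 (SE 0.39, edgeR adjusted p = 0.182) in group B against R and -1.03 (SE 0.32, adjusted p = 0.182) in group C against R, the widest differences of the set and both short of the threshold. CLPP overlaps ACER1, which had at most 1 read in any pig.

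SIRT3 (ENSSSCG00000014558, chr2:38465-55074), the main deacetylase of the matrix, had its highest mean on rapeseed oil, where HSPA9 had its lowest. The rapeseed oil pigs had 49.3, 60.5, 36.2, 40.2 and 41.3 CPM and the beef tallow pigs 45.1, 19.1, 10.50, 25.5 and 34.3 CPM. The coconut oil pigs had 16.97 to 33.2 CPM with a median of 27.7 CPM. All rapeseed oil pigs were above all coconut oil pigs, and all but beef tallow 1 of the beef tallow pigs were below every rapeseed oil pig. Means were 45.5 ± 9.65, 26.9 ± 13.4 and 26.4 ± 6.51 CPM in groups R, B and C, that is 0.587 times the rapeseed oil level in group B (log2 fold change -0.77, SE 0.31, edgeR adjusted p = 0.248) and 0.581 times in group C (-0.78, SE 0.21, adjusted p = 0.114). In group C against R DESeq2 gave SIRT3 an adjusted p of 0.0360, and leaving out 1 pig at a time kept the log2 fold change between -0.86 and -0.66 (edgeR adjusted p 0.0922 to 0.292). In group B against R the value was -0.54 (edgeR adjusted p = 0.277) without beef tallow 3, whose SIRT3 rested on 16 reads. PSMD13, 33 bases from SIRT3 in the annotation, had up to 149 reads per pig.

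Across the set, beef tallow 3 held the lowest value of 3 genes (HSPE1, TRAP1 and SIRT3) and the highest of HSPD1. With that pig left out, the count past the edgeR threshold was 0 of 8 in group B against R and in group C against B, as with it. Reads with several alignments were on no gene, and their share of all reads ran from 21.9% to 32.5%, 19.3% to 33.2% and 15.4% to 38.1% in groups R, B and C, with medians of 26.5%, 22.2% and 19.8%. The 33.2% was that of beef tallow 3, while the other beef tallow pigs lay at 19.3% to 22.8%. The 38.1% was that of coconut oil 3. The part of this share in the differences was not tested.

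The genes of the same families in other compartments gave a measure of how the mitochondrial members compared with them. HSPA8, the constitutive Hsp70 of the cytosol, had 159 ± 31.6, 414 ± 78.7 and 351 ± 70.2 CPM in groups R, B and C, and HSPA5, the Hsp70 of the ER, had 566 ± 97.7, 1654 ± 330 and 962 ± 278 CPM. HSPA8 rose in group B against R (log2 fold change 1.38, SE 0.19, edgeR adjusted p = 0.00517) and in group C against R (1.14, SE 0.17, adjusted p = 0.0115), with pigs that did not overlap. HSPA5 rose in group B against R (1.54, SE 0.19, edgeR adjusted p = 0.00104) and had 0.76 in group C against R (adjusted p = 0.11, and past the threshold of DESeq2 with an adjusted p of 0.0148). The cytosolic and ER calls were known from earlier results of these data when the ratios below were chosen, and the ratios share the same pigs. Ratios of HSPA9 to HSPA8 and to HSPA5 carry the differences of HSPA8 and HSPA5 themselves. Their p-values below are therefore not separate support for a difference of HSPA9.

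Within each pig, the log2 ratio of HSPA9 to HSPA8 was 0.85, 0.75, 0.88, 0.97 and 1.04 in the rapeseed oil pigs and -0.06, 0.09, 0.52, -0.28 and -0.13 in the beef tallow pigs. In the coconut oil pigs it ran from -0.05 over a median of 0.21 to 0.58. Every rapeseed oil pig had a higher ratio than every other pig, so that HSPA9 stood above HSPA8 in group R and near it in the other diets. Mean ratios were 0.90 ± 0.11, 0.03 ± 0.30 and 0.22 ± 0.23 in groups R, B and C. The difference was -0.87 in group B against R (p = 0.00794, adjusted p = 0.0317 over 12 ratio tests, two-sided exact permutation test over 252 labellings) and -0.68 in group C against R (p = 0.00433, adjusted p = 0.0317, exact permutation over 462 labellings). Group C against B gave 0.19 (adjusted p = 0.384, exact permutation test).

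For HSPA9 to HSPA5 the rapeseed oil pigs had log2 ratios of -1.37, -0.72, -0.70, -0.87 and -1.0 and the beef tallow pigs -2.04, -1.47, -2.11, -2.40 and -1.82, without overlap. The coconut oil pigs overlapped both, from -1.91 to -0.52 with a median of -1.33. The difference was -1.03 in group B against R (adjusted p = 0.0317, exact permutation test), -0.27 in group C against R (adjusted p = 0.384) and 0.76 in group C against B (p = 0.0173, adjusted p = 0.0519). The ratio of TRAP1 to HSP90B1, the ER Hsp90, differed by -0.74, -0.04 and 0.71 in the same order of pairs (adjusted p = 0.127, 0.909 and 0.0831, exact permutation tests), so 3 of the 12 ratio tests passed in all. With 1 pig fewer, fewer labellings are possible and the smallest p is larger. Over those refits the HSPA9 to HSPA8 difference stayed between -0.99 (without beef tallow 3) and -0.79 in group B against R (adjusted p 0.0457 to 0.0635, exact permutation). It stayed between -0.75 and -0.63 in group C against R (0.0238 to 0.0519). The HSPA9 to HSPA5 difference lay between -1.16 and -0.93 in group B against R (0.0457 to 0.0635). These 3 differences passed in 1 of 10, 6 of 11 and 1 of 10 refits.

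**Figure D3:**
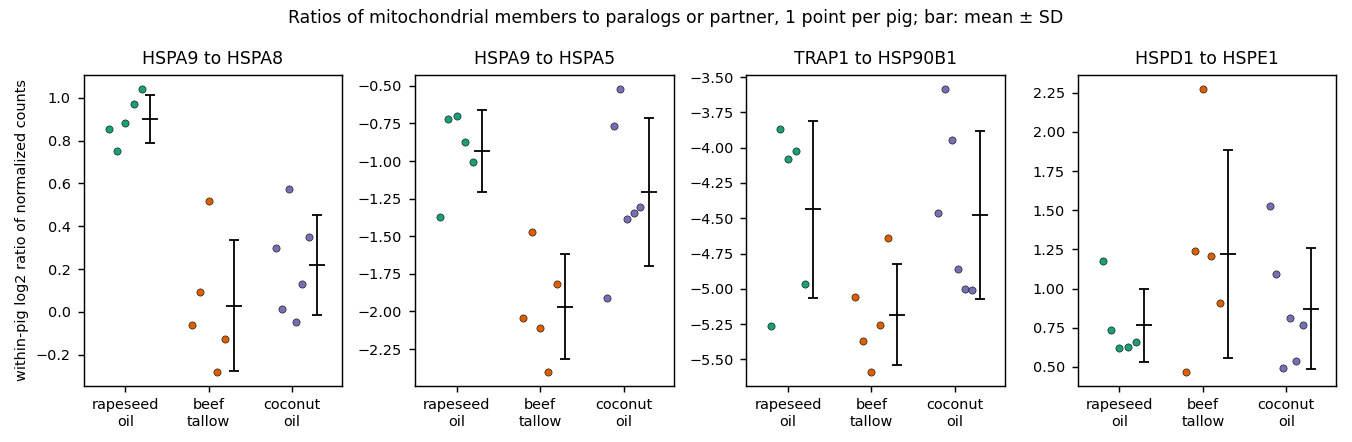
Log2 ratio of normalized counts within each pig for HSPA9 to HSPA8, HSPA9 to HSPA5, TRAP1 to HSP90B1 and HSPD1 to HSPE1, grouped by diet, with mean ± SD as a bar. The 5 rapeseed oil pigs lie at 0.75 to 1.04 for HSPA9 to HSPA8, above all 11 other pigs (-0.28 to 0.58).

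Of 6049 genes with a symbol that were kept over all 16 pigs, the gene most like HSPA9 was HSPA8, with Pearson's r = 0.921 and Spearman's rho = 0.844 on log2 CPM. This is a description, named after its values were seen. It was 0.870 without the 2 pigs farthest from the median of HSPA9 (rapeseed oil 1 and 5), and 0.638 after each diet's mean was taken away. EEIG2 (r = 0.832) and ZPR1 (r = 0.828) came next. HSPA5 had r = 0.641 with HSPA9 over all pigs and -0.199 within diets. The genes most like HSPD1 were RP9 (r = 0.877) and COMMD4 (r = 0.786). Those most like SIRT3, also named after their values were seen, were MORC2 (r = 0.817), VAPB (r = 0.806) and ABHD17A (r = 0.805).

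**Figure D4:**
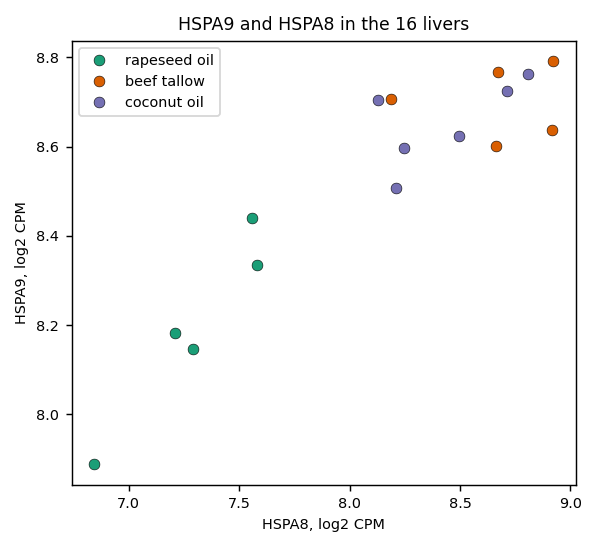
HSPA9 against HSPA8 in log2 CPM (both axes logarithmic), 1 point per pig, coloured by diet. The 5 rapeseed oil pigs form the lower left, with HSPA9 at 7.89 to 8.44, and the other 11 pigs the upper right, with HSPA9 at 8.51 to 8.79.

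Among the 8 genes themselves, 28 pairwise correlations over the 16 pigs were tested with 100000 permutations each, and none passed after adjustment (smallest adjusted p = 0.170, permutation test). HSPD1 and HSPE1, the 2 parts of 1 machine, had r = -0.18 and rho = 0.01 (adjusted p = 0.806 and 0.961, permutation), and r = 0.18 without the 2 farthest pigs. HSPD1 and HSPA9 had r = 0.58 (p = 0.0182, adjusted p = 0.170, permutation) and rho = 0.45, which was 0.21 within diets. HSPA9 and SIRT3 had r = -0.59 (p = 0.0157, adjusted p = 0.170, permutation) and rho = -0.64, and -0.10 within diets, so their opposite levels lay between the diets and not between pigs of a diet. HSPE1 and TRAP1 had r = 0.65 (p = 0.00895, adjusted p = 0.170, permutation) and rho = 0.52, but 0.35 without beef tallow 3 and 0.38 without the 2 farthest pigs.

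The partners of these genes in the matrix were also without a call. Of 12 matrix partner chaperones and folding factors, 5, 5 and 6 were tested in group B against R, C against R and C against B, and 0 passed the edgeR threshold in any pair, with 1, 1 and 0 at an unadjusted p under 0.05, 0 calls by DESeq2 and medians of -0.03, 0.08 and 0.02. The shares of all genes at that unadjusted p were 15%, 13.0% and 11.5%, and those without overlap 4.57%, 1.46% and 1.45%. They are the background for this list and each list below. The largest differences were those of PPIF, the matrix cyclophilin of the permeability transition pore, with 0.81 (edgeR adjusted p = 0.369) in group B against R and 0.88 (0.269) in group C against R. DNAJC19, a J-protein of the import motor, had -0.56 (adjusted p = 0.153) in group B against R, with pigs that did not overlap, and 0.40 in group C against B, and DNAJC15 had -0.48 in group C against R. GRPEL2, the paralog of GRPEL1, had -0.49 in group C against B at 12.1 and 7.77 CPM.

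A further list of 19 genes held other mitochondrial proteases, processing peptidases and the scaffold proteins PHB1, PHB2 and STOML2, which are not proteases. Of these, 8, 8 and 9 were tested and 0 passed in any pair of diets (0, 1 and 0 at an unadjusted p under 0.05, and 0 by DESeq2). Their medians were -0.07, -0.02 and -0.07. ATP23 had -0.41 in group B against R and -0.49 in group C against R, and the prohibitin PHB1 -0.35 and -0.41. In group C against B the widest values were 0.21 for STOML2 and -0.19 for XPNPEP3.

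Among 24 genes of the import translocases, through which nuclear-coded precursors enter, 15, 16 and 16 were tested, and edgeR called 0 and DESeq2 1, 0 and 0. In group B against R 12 of 15 were positive (median 0.18, 4 at an unadjusted p under 0.05, all higher) and in group C against R 12 of 16 (median 0.18, 3 higher at an unadjusted p under 0.05). That unadjusted p was reached by 15% of all genes in group B against R and by 13.0% in group C against R. TIMM10B, a small chaperone of the intermembrane space, had 34.5 ± 7.45 CPM in group R and 67.4 ± 29.6 in group B without overlap (log2 fold change 0.98, SE 0.27, edgeR adjusted p = 0.0897, DESeq2 adjusted p = 0.0367) and -0.69 in group C against B. TIMM17A had 0.95 and 0.89 against rapeseed oil in groups B and C (edgeR adjusted p = 0.263 and 0.305), and TIMM22 had 0.63 in group C against R and 0.61 in group C against B. Group C against B had a median of -0.11 and 1 higher and 1 lower at an unadjusted p under 0.05, beside 11.5% of all genes.

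Of 13 regulators and secreted outputs of the mitochondrial stress response, 5 were tested in each pair of diets, of which edgeR called 0 and DESeq2 1, 0 and 1. The 5 were ATF5, CEBPB, PPARGC1A, DELE1 and TRIB3. ATF4 and DDIT3 had no ID paired with their symbols, and the secreted FGF21 and GDF15 were not among the genes tested. In group B against R all 5 were positive, with a median of 0.58 beside 0.01 over all genes. An unadjusted p under 0.05 was reached by 3 of them, beside 15% of all genes. TRIB3, a pseudokinase induced by stress, had 7.72 ± 2.69 CPM in group R and 24.5 ± 14.4 in group B (log2 fold change 1.69, SE 0.41, edgeR adjusted p = 0.0599, DESeq2 adjusted p = 0.0131), and 1.40 (edgeR adjusted p = 0.198) in group C against R. ATF5, the transcription factor tied to the mitochondrial response, had 0.87 (edgeR adjusted p = 0.124) in group B against R and -0.97 (edgeR adjusted p = 0.208, DESeq2 adjusted p = 0.0243) in group C against B, at 43.4 ± 11.4, 79.6 ± 29.2 and 40.9 ± 10.2 CPM in groups R, B and C. PPARGC1A, a coactivator of mitochondrial biogenesis, had 0.58 in group B against R, 0.62 in group C against R and 0.05 in group C against B. DELE1, which relays mitochondrial stress to the cytosol, had -0.38 in group C against B. The medians of the list in group C against R and C against B were 0.16 and -0.30. At an unadjusted p under 0.05 there were 2 higher and 1 lower, where 13.0% and 11.5% of all genes reached it.

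**Figure D5:**
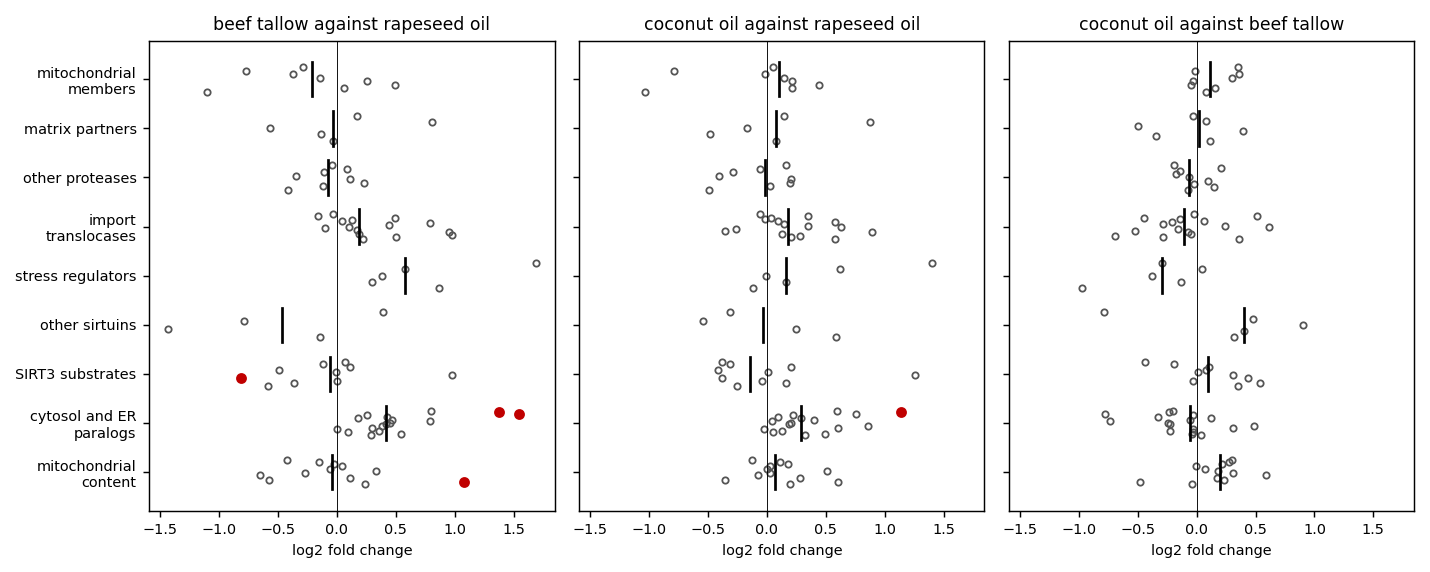
Log2 fold changes of the genes tested in each list (open circles), in the 3 pairs of diets, with the list's median as a bar and genes past the edgeR adjusted threshold as filled red circles. Filled circles appear for GLUD1, HSPA5, HSPA8 and CYCS in beef tallow against rapeseed oil and for HSPA8 in coconut oil against rapeseed oil, and none among the mitochondrial set.

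Of the 6 other sirtuins, 4, 4 and 5 were tested in group B against R, C against R and C against B, of which 0 passed by edgeR or DESeq2 (which gave an adjusted p to 2, 0 and 0), with 1, 0 and 0 at an unadjusted p under 0.05 and medians of -0.47, -0.03 and 0.40. SIRT4, also mitochondrial, had -1.43 (SE 0.49, edgeR adjusted p = 0.169) in group B against R, -0.54 in C against R and 0.91 in C against B. SIRT5, the third mitochondrial sirtuin, had -0.78 in group B against R (edgeR adjusted p = 0.372). SIRT1, of the nucleus, had 0.59 in group C against R, and SIRT7 -0.79 in group C against B, all from mean levels of 6.36 to 24.7 CPM.

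Of 12 enzymes known as SIRT3 substrates, 10 were tested in each pair. GLUD1, mitochondrial glutamate dehydrogenase, fell in group B against R from 529 ± 29.3 to 302 ± 81.0 CPM (log2 fold change -0.81, SE 0.18, edgeR adjusted p = 0.0426), with pigs that did not overlap, and it was the 1 edgeR call of the list (DESeq2 made 2). Leaving out 1 pig at a time kept it between -0.98 and -0.74, past the threshold in 2 of 10 fits, those without beef tallow 3 or 4 (edgeR adjusted p 0.0212 to 0.108). OTC of the urea cycle had -0.49 in group B against R, with pigs that did not overlap (edgeR adjusted p = 0.142, DESeq2 adjusted p = 0.0335, the second of its calls), and -0.41 in group C against R. ALDH2 had 0.54 and SOD2 -0.44 in group C against B. In group C against R, SOD2 had -0.38 (edgeR adjusted p = 0.255) with pigs that did not overlap, and GLUD1 had -0.38 (edgeR adjusted p = 0.377). The list had 0 calls in group C against R and in group C against B (1 higher and 3 lower, and 1 higher and 1 lower, at an unadjusted p under 0.05, and 0 by DESeq2), with medians of -0.06, -0.14 and 0.09. Beside these counts, 13.0% and 11.5% of all genes reached that unadjusted p. Pigs of groups B and R did not overlap for 4.57% of all genes, and those of groups C and R for 1.46%.

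Of 14 genes that mark mitochondrial content, 12 were tested. CYCS, cytochrome c, rose in group B against R from 101 ± 27.4 to 214 ± 48.8 CPM (log2 fold change 1.08, SE 0.21, edgeR adjusted p = 0.0285), and had 0.60 in C against R and -0.48 in C against B. With 1 pig left out it lay at 0.96 to 1.21 in group B against R and passed in 4 of 10 fits, those without rapeseed oil 2 or 4 or beef tallow 3 or 5 (edgeR adjusted p 0.0203 to 0.0903). SDHB, a subunit of complex II, had -0.65 in group B against R (edgeR adjusted p = 0.174) and 0.59 in C against B, and SLC25A5, an ADP/ATP carrier, had 0.51 in group C against R. The medians of the list were -0.04, 0.07 and 0.20, with 5, 9 and 9 of the 12 positive and 0 calls in group C against R and C against B (1 and 1 at an unadjusted p under 0.05, both higher, and 0 by DESeq2).

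Of 19 chaperones of the cytosol and the ER, 17 were tested, and 17 of 17 had a positive log2 fold change in group B against R (median 0.42, with HSPA5 and HSPA8 past the threshold) and 16 of 17 in group C against R (median 0.29, with HSPA8 past it). DESeq2 called 3 genes in each, adding HSPH1 (adjusted p = 0.0328) in group B against R, and HSPA5 and DNAJA1 in group C against R. The mitochondrial set, which also holds proteases and a deacetylase, had 3 of 8 and 5 of 8 positive in the same comparisons. In group C against R its positive genes were the chaperones HSPD1 (0.22), HSPE1 (0.15), HSPA9 (0.44), TRAP1 (0.05) and DNAJA3 (0.21). LONP1, CLPP and SIRT3 were negative in both comparisons, and in group B against R so were the chaperones HSPE1 (-0.14) and TRAP1 (-0.29). DNAJA1, a cytosolic Hsp40, had 0.86 (edgeR adjusted p = 0.0644, DESeq2 adjusted p = 0.00131) in group C against R with pigs that did not overlap. In group C against B edgeR called 0 and DESeq2 1, which was HSPA5. HSPA5 had -0.78 (edgeR adjusted p = 0.210) and DNAJB11, an ER co-chaperone, -0.73 (adjusted p = 0.295), with a median of -0.05 and 1 higher and 2 lower at an unadjusted p under 0.05. With 1 pig left out, HSPA5 and HSPA8 passed in 10 of 10 fits in group B against R, and HSPA8 in 11 of 11 in group C against R.

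Between barrows and gilts, with diet as a term, 0 of the 8 genes passed the edgeR threshold and 0 reached an unadjusted p under 0.05, while 0.0786% and 4.90% of all genes did, and DESeq2 called 0 of 8. Their log2 fold changes ran from -0.15 for SIRT3 to 0.27 for TRAP1 (smallest edgeR adjusted p = 0.954). The interaction of sex with diet was tested for the 8 genes in the 3 pairs of diets, and 0 of 24 tests passed (smallest unadjusted p = 0.166).

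Markers of other liver cells moved with the diets in part. In group B against R, the Kupffer cell gene CD163 rose (log2 fold change 0.79, edgeR adjusted p = 0.0414), as did the sinusoidal gene LYVE1 (0.88, adjusted p = 0.0495), and the hepatocyte gene TTR fell by 0.78 on the log2 scale (adjusted p = 0.0426), each past the threshold in 2 of the 10 fits without 1 pig. The lists were mixed in sign, with 6 of 8 Kupffer cell, 3 of 5 sinusoidal and 4 of 9 hepatocyte markers tested being positive. MARCO of the Kupffer cells had -0.55 and KDR of the sinusoids -0.50, while the hepatocyte gene CPS1 had 0.83 (edgeR adjusted p = 0.0627, DESeq2 adjusted p = 0.00913) with pigs that did not overlap. In group C against R edgeR called 0 markers, and 2 of 8, 3 of 5 and 4 of 9 of these lists were positive. DESeq2 called LYVE1 (0.86, adjusted p = 0.0216) and the Kupffer cell gene C1QA (-0.65, adjusted p = 0.0360). In group C against B 1 of 8 Kupffer cell markers was positive, and 4 were lower at an unadjusted p under 0.05. There edgeR called 0 markers, and DESeq2 called C1QA (-0.80), CPS1 (-0.59) and TTR (0.54). Summed over the list, 9 of 10 Kupffer cell markers had 625 to 1180 CPM in group R, 866 to 1750 in B and 630 to 932 in C, and CSF1R had a median of 0 reads. The hepatocyte markers had 126443 to 185992, 77991 to 179758 and 109668 to 213880 CPM. Sinusoidal markers (6 of 8 with an ID) had 302 to 486, 387 to 489 and 348 to 443 CPM, and stellate cell markers (7 of 7) 369 to 884, 332 to 816 and 336 to 765 CPM. Cholangiocyte markers (4 of 5, with KRT7 at a median of 0 reads) summed to 3.93 to 34.0 CPM over all pigs, T or NK cell markers (5 of 6) to 10.6 to 48.2, and B or plasma cell markers (4 of 4, with CD79A at a median of 0 reads) to 4.42 to 54.4, while red blood cell markers (3 of 4) ranged from 501 to 4948 CPM. The part of these cell types in the levels of HSPA9, CLPP and SIRT3 was not tested.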

How the data were processed

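Livers of 16 pigs were analysed. The authors made 3′ mRNA libraries with the QuantSeq FWD kit, mapped trimmed reads to assembly Sus scrofa 11.1 using TopHat, and used HTSeq for counting. They deposited raw counts, 1 whole number per Ensembl gene and pig. Tallies of reads on no gene were left out of library sizes and tests. Log2 fold changes were then fitted with edgeR 4.0.16 (glmQLFit and glmQLFTest, TMM) in R 4.3.3, on the pigs of the 2 diets compared, without covariates. filterByExpr (min.count 10, min.total.count 15) left 6318 genes for beef tallow against rapeseed oil, 6528 for coconut oil against rapeseed oil and 6812 for coconut oil against beef tallow. Log2 CPM and ratios used a prior count of 1, and correlations and exact permutation tests used SciPy 1.17.1 in Python 3.11.15. The SE is the size of the log2 fold change over the root of F. The fitting steps were tested on simulated data. Pigs are separate animals, grouped by the diet in their labels.

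The 9 genes and all lists were chosen with earlier results of these data known. Of each further list, the genes past the threshold and the 2 genes with the widest log2 fold change in each pair of diets are named, except for genes that are not reported here. Alternatives were DESeq2 1.42.0, RLE normalization, all genes with a read, genes with 10 or more reads in each pig, a joint fit of the 16 pigs, a term for sex, a block for the replicate number, counts thinned to the smallest library (705669 reads), a prior count of 0.25 and each pig left out in turn. Symbols and positions come from RefSeq's annotation of Sscrofa11.1. Genes with near-identical copies are uncertain, since reads with several alignments were counted on no gene. Promoter and protein sequences and qPCR were not analysed here.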

Additional observations from a re-analysis of the deposited data

Results flagged for a closer look

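Of 36 groups of pigs (12 measures in 3 diets), 3 held a pig whose distance from its nearest neighbour took up more of the group's range than Dixon's 95% value allows, and chance gives about 1 in 20. LONP1 had 82.5 CPM in coconut oil 1, while the other coconut oil pigs lay at 52.4 to 59.6 CPM. CLPP had 20.1 CPM in coconut oil 3, from 13 reads, while the others lay at 9.01 to 11.4 CPM. The log2 ratio of HSPD1 to HSPE1 was 1.18 in rapeseed oil 1, against 0.62 to 0.74 in the other rapeseed oil pigs.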

How the results depend on the processing

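None of the 8 genes passed the edgeR threshold in any diet comparison under RLE, the other filters, all 16 pigs in 1 fit, sex as a covariate, thinning, the replicate block or with any 1 pig left out, and DESeq2 called 1 in beef tallow against rapeseed oil and 2 in coconut oil against rapeseed oil. Genes past the threshold numbered 70 in beef tallow against rapeseed oil, but 188 with DESeq2, 190 without a filter and 45 after thinning, and 9 to 149 with 1 pig left out (149 without beef tallow 3, 9 without rapeseed oil 5). In coconut oil against rapeseed oil they numbered 9, with DESeq2 93, without a filter 82, at 10 reads in every pig 14, after thinning 3 and with 1 pig left out 3 to 27. In coconut oil against beef tallow they numbered 4, with DESeq2 53, without a filter 22, with all 16 pigs in 1 fit 8 and with 1 pig left out 4 to 9. Ratio tests past the threshold numbered 3, and 0 to 5 with 1 pig left out. The causes were not tested, other than that fewer pigs allow fewer labellings.

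Replicate numbers did not pair the pigs: same-numbered pigs of 2 diets correlated from -0.234 to 0.138 in their deviations from the diet means. The replicate block, which drops coconut oil 6, left 35 genes past the threshold in beef tallow against rapeseed oil, and turned LONP1 in coconut oil against rapeseed oil to 0.052 and SIRT3 in coconut oil against beef tallow to 0.10.

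The signs that turned were these. Thinning turned DNAJA3 in beef tallow against rapeseed oil to -0.22 and TRAP1 in coconut oil against rapeseed oil to -0.10, and no filter turned SIRT3 in coconut oil against beef tallow to 0.011. With 1 pig left out, beef tallow against rapeseed oil ran from -0.32 to 0.015 for HSPE1 and from -0.059 to 0.13 for DNAJA3. Coconut oil against rapeseed oil ran from -0.16 to 0.17 for TRAP1 and from -0.13 to 0.14 for LONP1. Coconut oil against beef tallow ran from -0.094 to 0.048 for HSPD1, -0.094 to 0.37 for CLPP and -0.24 to 0.28 for SIRT3. The log2 ratios of TRAP1 to HSP90B1 and of HSPD1 to HSPE1 in coconut oil against rapeseed oil ran from -0.24 to 0.10 and from -0.024 to 0.21. After thinning, HSPA9 to HSPA5 in coconut oil against beef tallow passed (0.76, adjusted p = 0.0476, exact permutation). GLUD1 missed the threshold under the block, after thinning and in 1 fit of all pigs, and CYCS under the block. Depth limits CLPP most, at 5 to 31 reads per pig and an SE of 0.32 to 0.39 on the log2 scale.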
